A study of Mus musculus with 5 samples.

Results

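The genes of the constitutive proteasome and its partners were followed in single-nucleus RNA sequencing (snRNA-seq) data from the mouse brain. Members were all genes whose symbols begin with Psma, Psmb, Psmc, Psmd, Psme, Psmf or Psmg followed by a number, without the inducible subunits Psmb8, Psmb9 and Psmb10 and without pseudogenes. The rule used symbols only and took 47 of the 32285 genes in the files. They comprised 14 subunits of the 20S core (7 alpha and 7 beta), 6 ATPases and 11 other subunits of the 19S cap, 3 assembly chaperones of the cap and 4 of the core, 5 activator genes, 1 inhibitor, 2 tissue-restricted core subunits (Psma8 and Psmb11) and Psmc3ip, a recombination gene whose symbol fits the rule although its product is no proteasome subunit.

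The data came from 5 libraries, each from 1 mouse. All mice carried the Tmem119-creERT2 driver, a tamoxifen-inducible Cre that the study describes as active mostly in microglia and brain macrophages. The R241E group (2 mice) was cGas wt/R241E, heterozygous for an inducible form of the DNA sensor cGAS that escapes inhibition by nucleosomes, and the WT group (3 mice) was cGas wt/wt. The study's methods state that tamoxifen was given to young adult mice and that sorted nuclei were negative for NeuN and Olig2, proteins of neurons and oligodendrocyte-lineage cells. The source is labelled hippocampus, whereas the methods name brain without a region, and an accompanying treatment text on H151 and DMSO in aged mice assigns neither to a sample. The study's results name controls heterozygous for the allele, while the titles, which were followed here, give wild type.

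The proteasome degrades proteins tagged with ubiquitin. Its 20S core is a barrel of alpha and beta rings with the proteolytic sites inside, and the 19S cap recognises, unfolds and feeds in ubiquitinated proteins. In cells exposed to interferon, Psmb8, Psmb9 and Psmb10 replace the catalytic subunits Psmb5, Psmb6 and Psmb7, and the PA28 activator formed by Psme1 and Psme2 can bind the core. In this way peptides are made for presentation on MHC class I.

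Since interferon acts on part of this machinery, the promoters of the members were searched for the letters of an interferon-stimulated response element (ISRE), GAAA, any 2 bases and GAAA again, on both strands. RefSeq promoter windows (250 bases before to 50 after the gene start, GRCm38.p6) were found for 39 of the 47 members. The motif occurred in 5 of them, against 3.99% of the 27025 genes with a window. The matches are shown for these 5, written along the gene's strand with the motif in capitals; TTTC at the left end of the capitals marks a match on the opposite strand.
Psme1 (chr14:55578493-55578522, plus strand): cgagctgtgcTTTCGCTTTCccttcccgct
Psmg4 (chr13:34162969-34162998, plus strand): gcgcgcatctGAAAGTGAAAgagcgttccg
Psmb3 (chr11:97703261-97703290, plus strand): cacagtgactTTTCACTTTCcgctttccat
Psmd9 (chr5:123228021-123228050, plus strand): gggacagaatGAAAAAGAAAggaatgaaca
Psmd4 (chr3:95042675-95042704, minus strand): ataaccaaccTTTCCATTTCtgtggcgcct
The capitals began 10 bases after the gene start in Psme1 and 16 bases after it in Psmg4, inside the transcribed part, and 163, 159 and 80 bases before it in Psmb3, Psmd9 and Psmd4. Psme2 held no match in its window. A match describes the letters only and was not tested for factor binding.

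Of the 9748 nuclei deposited, 9505 were kept, and classes were named from marker genes. Microglia, the macrophages of the brain parenchyma, made up 5377 nuclei, with 1006 and 524 in R241E replicates 1 and 2 and 926, 1470 and 1451 in WT replicates 1 to 3. All 9 microglia markers were detected in each of the 5 microglial clusters. Library totals ranged from 4183709 to 10130667 unique molecular identifiers (UMIs), and median UMIs per microglial nucleus were 3056 and 2573 in R241E and 2061 to 2614 in WT. Most WT microglia lay in clusters 0 and 1 (91.0% to 96.0% of each library), whereas clusters 2, 5 and 8 held most R241E microglia (79.4% and 91.7%). Cluster 8 had Ifi207, Ifi204 and Oas2 among its leading genes. None of the members was among the 3000 genes used for clustering. Pairs of libraries shared at most 2 barcodes.

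To determine how the proteasome genes differed between the genotypes, UMIs were summed over the microglia of each library. The sums were tested with edgeR's quasi-likelihood test, and levels are given as CPM, counts scaled to the same total in each library. In R241E microglia, 3 members rose and none fell at an adjusted p under 0.05. The 3 were Psme1 and Psme2, which encode the PA28 alpha and beta subunits, and Psmg4, a chaperone of core assembly. Enough counts for the test were present for 45 of the 47 members, so 6.67% were called higher, close to the 6.04% of all 12725 genes tested, and 3.25% of those genes were called lower. A share this near to that of all genes is no result about the members as a set.

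**Figure D1:**
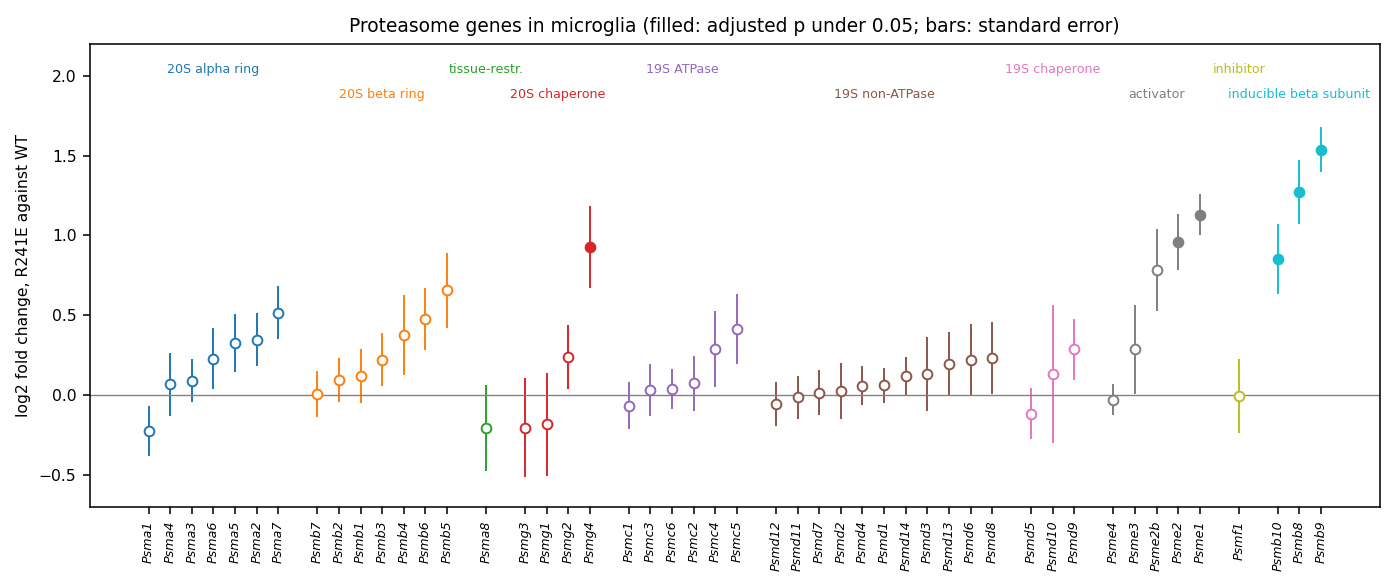
Log2 fold change (R241E against WT, vertical axis) of each tested proteasome gene in microglia, grouped by role, with the 3 inducible beta subunits at the right for comparison. Bars give the standard error and filled points an adjusted p under 0.05; Psme1, Psme2 and Psmg4 are the filled members, and the 20S and 19S subunits lie between -0.22 and 0.66.

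Most members shifted slightly upward without passing the test. The log2 fold change was above 0 for 35 of the 45 and below 0 for 10, with a median of 0.12, whereas the median of all genes tested was -0.00 and 49.2% of them were above 0. Both R241E libraries lay above all WT libraries for 11 members (24.4%, against 20.3% of all genes) and below them for 1, the cap chaperone Psmd5 (17.7% of all genes). In the other 33 members the groups overlapped.

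Psme1 (ENSMUSG00000022216, chr14:55578494-55581527) had 179.7 and 181.3 CPM in R241E microglia, against 71.6, 72.9 and 99.9 CPM in WT replicates 1 to 3. The groups did not overlap, and WT replicate 3 was the highest of the WT libraries. The log2 fold change was 1.13 (SE 0.13), a 2.19-fold rise (edgeR adjusted p = 2.6e-05). The gene overlaps Emc9, a subunit gene of a membrane protein insertase, with 35.5 and 33.9 CPM in R241E against 24.4 to 27.5 CPM in WT (adjusted p = 0.132).

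Psme2 (ENSMUSG00000079197, chr14:55587440-55591101), the neighbouring gene for the other PA28 subunit, had 39.3 and 45.7 CPM in R241E against 19.4, 19.1 and 25.2 CPM in WT. Again both R241E libraries lay above all WT libraries (log2 fold change 0.96, SE 0.18, adjusted p = 0.00221). Psme2b, an intronless near copy of Psme2 inside the gene 9930111J21Rik1, reached 15.7 and 18.7 CPM in R241E and 7.68, 8.995 and 11.995 CPM in WT. Its groups did not overlap either, but its difference missed the threshold (log2 fold change 0.78, adjusted p = 0.0730), and reads of such copies cannot be assigned with certainty.

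The remaining activators encode other regulators of the core. Psme3, the nuclear PA28 gamma, had 11.3 and 8.995 CPM in R241E and 7.68, 8.07 and 9.60 CPM in WT, so that the groups overlapped (log2 fold change 0.29, SE 0.28, adjusted p = 0.645). Psme4, which encodes PA200, was the member with the most UMIs in microglia, and its levels lay between 237 and 254 CPM in all 5 libraries (log2 fold change -0.03, SE 0.10, adjusted p = 0.915). The inhibitor gene Psmf1 lay between 13.5 and 17.3 CPM in all libraries (log2 fold change -0.00, SE 0.23, adjusted p = 0.998).

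**Figure D2:**
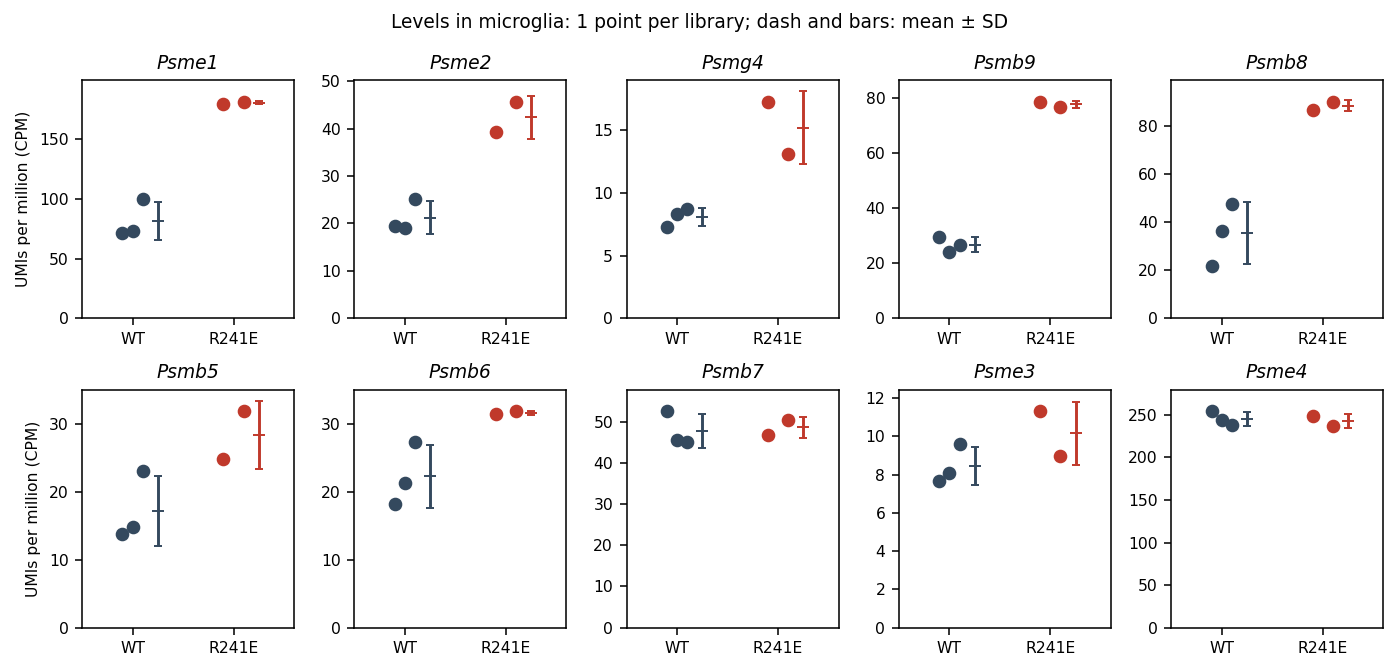
Levels (CPM, vertical axes from 0) of 10 proteasome genes in microglia, with 1 point per library and the mean ± SD beside the points. Psme1, Psme2, Psmg4, Psmb9, Psmb8, Psmb5 and Psmb6 show both R241E libraries above the 3 WT libraries, and Psmb7, Psme3 and Psme4 show overlapping groups.

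Among the 20S subunits, 13 of 14 had log2 fold changes above 0 (median 0.23), and none passed the test. At an unadjusted p under 0.05 there were 3 of the 14, Psma7, Psmb5 and Psmb6, beside 2645 of all 12725 genes. DESeq2 called none, whereas with no filter on low counts Psmb5 passed (edgeR adjusted p = 0.0464). Both R241E libraries exceeded all WT libraries for 6 of the 14 (42.9%, against 20.3% of all genes). In the alpha ring, which forms the gate of the barrel, Psma7 was nearest to the threshold with 40.8 and 56.0 CPM in R241E and 32.3, 31.6 and 33.3 CPM in WT (log2 fold change 0.52, SE 0.16, adjusted p = 0.0654). Psma1 was the only 20S gene below 0, at 44.9 and 56.0 CPM against 52.2, 52.3 and 66.3 CPM (log2 fold change -0.22, adjusted p = 0.474).

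None of the catalytic beta subunits passed the test, and their fold changes were not tested against each other. Psmb5, the chymotrypsin-like subunit, had 24.8 and 31.8 CPM in R241E and 13.7, 14.8 and 23.1 CPM in WT (log2 fold change 0.66, SE 0.23, adjusted p = 0.103). Psmb6, the caspase-like subunit, had 31.4 and 31.8 CPM against 18.2, 21.2 and 27.3 CPM (log2 fold change 0.48, adjusted p = 0.159). For both genes WT replicate 3 came closest to the R241E libraries. Psmb7, the trypsin-like subunit, had 46.8 and 50.5 CPM against 52.6, 45.7 and 45.0 CPM, with overlapping groups and a log2 fold change of 0.01 (adjusted p = 0.992).

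For the 19S cap, all 17 subunits overlapped between groups, whereas 20.3% of all genes lay above all WT libraries and 17.7% below. Of the 17, 14 had log2 fold changes above 0 (49.2% of all genes), and the median was 0.06. None passed the test, and none reached an unadjusted p of 0.05, beside 2645 of all 12725 genes. Among the ATPases, which unfold the substrate, values ran from -0.07 for Psmc1 to 0.42 for Psmc5, the latter with 28.9 and 26.3 CPM in R241E and 14.96, 19.6 and 26.7 CPM in WT (adjusted p = 0.317). Among the non-ATPases they ran from -0.06 for Psmd12 to 0.23 for Psmd8. The group includes the ubiquitin receptor Psmd4, which held a promoter match, at 76.0 and 75.4 CPM against 67.9, 75.9 and 71.1 CPM (log2 fold change 0.06, adjusted p = 0.854).

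Of the assembly chaperones, which help the rings and the base form and then leave, Psmg4 rose. It had 17.3 and 13.1 CPM in R241E against 7.28, 8.30 and 8.70 CPM in WT, without overlap (log2 fold change 0.93, SE 0.26, adjusted p = 0.0324). This call rested on 18 to 55 UMIs per library and was lost with DESeq2 (adjusted p = 0.213) and without R241E replicate 1 (0.444), WT replicate 1 (0.0828) or WT replicate 2 (0.0925), and with sums thinned to the smallest library (0.625). Its partners did not pass the test: Psmg3, with which its product pairs, had a log2 fold change of -0.20, Psmg1 of -0.18 and Psmg2 of 0.24. The cap chaperones Psmd5, Psmd10 and Psmd9 had values of -0.12, 0.13 and 0.29. Of the tissue-restricted subunits, Psma8, known from testis, had 12.6 and 12.5 CPM in R241E and 9.70, 15.4 and 16.8 CPM in WT (log2 fold change -0.21, adjusted p = 0.749), and Psmb11, known from thymus, had 1 to 4 UMIs per library and was not tested. Psmc3ip, with 3 to 11 UMIs per library, was not tested either.

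The count of 3 called members depended on single libraries. Without WT replicate 3 it was 6, with Psmb5, Psmb6 and Psme2b added (adjusted p = 0.0120, 0.0426 and 0.0321), and without R241E replicate 1 it was 2. Psme1 and Psme2 were called in all 14 settings run, with log2 fold changes of 1.06 to 1.29 and 0.87 to 1.11.

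The inducible subunits, measured for comparison, all rose. Psmb9 had 78.5 and 76.8 CPM in R241E and 29.5, 24.0 and 26.7 CPM in WT (log2 fold change 1.54, SE 0.14, adjusted p = 2.76e-06). Psmb8 had 86.7 and 89.9 CPM against 21.8, 36.4 and 47.7 CPM (log2 fold change 1.27, adjusted p = 0.000635). Psmb10 had 27.3 and 23.5 CPM against 10.51, 15.7 and 15.3 CPM (log2 fold change 0.85, adjusted p = 0.0209), a call lost with DESeq2 (adjusted p = 0.0938), without R241E replicate 1 (0.298), without WT replicate 1 (0.0625) and with thinned sums (0.204). The ISRE letters occurred in none of the 3 promoter windows.

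To compare the PA28 activator with the core, UMIs of Psme1 and Psme2 were divided by those of the 14 20S subunits. There were 33.6 and 30.5 PA28 UMIs per 100 core UMIs in R241E microglia and 16.5, 15.5 and 18.5 in WT. The ratio was thus 1.91-fold higher in R241E, with both libraries above all WT libraries (two-sided exact permutation p = 0.1, the smallest that 2 against 3 libraries allow). Against the 17 19S subunits the ratio was 2.07-fold higher (22.6 and 23.0 against 10.51, 10.04 and 12.7 per 100, exact p = 0.1). The 19S to 20S ratio overlapped between groups (149 and 133 against 157, 154 and 146 per 100, exact p = 0.3).

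Inducible beta subunits were likewise set against the constitutive ones they replace. For every 100 UMIs of Psmb5, Psmb6 and Psmb7 there were 187 and 167 UMIs of Psmb8, Psmb9 and Psmb10 in R241E and 73.2, 93.2 and 94.0 in WT. This ratio was 2.05-fold higher in R241E (exact p = 0.1). Psme1 UMIs per 100 Psme2 UMIs were 458 and 397 in R241E and 369, 381 and 396 in WT, a 1.12-fold difference in which R241E replicate 2 barely exceeded WT replicate 3 (exact p = 0.1).

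Other transcripts moved with genotype in the same microglial sums. The 82 cytosolic ribosomal protein genes summed to 6684 and 8323 CPM in R241E and to 3510, 3813 and 5368 CPM in WT, and 72 of them lay above all WT libraries in both R241E libraries. The 13 mt- genes of the mitochondrial genome summed to 901 and 940 CPM against 549 to 673 CPM. Relative to the ribosomal protein genes, Psme1 and Psme2 gave 3.28 and 2.73 UMIs per 100 in R241E and 2.59, 2.41 and 2.33 in WT, a ratio 1.22-fold higher with no overlap (exact p = 0.1). The part of this shift in the rise of the PA28 genes was not tested. When nuclei were thinned to 1000 UMIs and divided by their number of ribosomal protein UMIs, the R241E libraries lay above all WT libraries in each bin. With 0 to 2 such UMIs, PA28 transcripts summed to 248 and 225 CPM in R241E against 93.4, 85.2 and 117 CPM in WT. The R241E values of this bin rest on few PA28 UMIs, 27 in 109 nuclei of replicate 1 and 9 in 40 nuclei of replicate 2. With 3 to 5 they summed to 242 and 197 against 96.7, 105 and 113 CPM, and with 6 or more to 224 and 243 against 116, 147 and 162 CPM.

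Gene span moved with the size of change as well. Apart from Psme1, Psme2 and Psme2b, the 15 tested members spanning under 10 kb had a median log2 fold change of 0.23 and 14 lay above 0, whereas the 27 longer ones had a median of 0.07 and 18 lay above 0. Over all genes the medians were 0.09 below 10 kb and -0.02 above. Relative to the 12 core and cap subunits under 10 kb, the PA28 ratio was 1.83-fold higher in R241E (51.1 and 46.3 against 26.9, 24.3 and 28.5 per 100). Markers of oligodendrocytes in the microglial sums lay at 215 and 300 CPM in R241E and at 127 to 142 CPM in WT, with 4 of 6 above all WT libraries. Higher too were those of precursors of oligodendrocytes (7.22 and 5.54 against 2.83 to 5.40 CPM), with 3 of 4 genes above. The sum of mural cell markers was higher as well (18.2 and 27.0 against 10.9 to 16.1 CPM), with 3 of 8 genes above and 1 below. Markers of border-associated macrophages were lower (10.1 and 8.99 against 13.5 to 20.5 CPM), with 2 of 7 genes below and 1 above. Endothelial markers were also lower in sum (28.9 and 29.1 against 37.8 to 40.5 CPM), with only 1 of 6 genes below all WT libraries. Marker sums of the remaining classes overlapped. The part of these markers was not tested.

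Whether PA28 transcripts were confined to nuclei with detected interferon-induced genes was examined with the study's list of 28 interferon genes. The list holds no proteasome gene and was used by the study to describe microglia of these libraries. Over all microglia it summed to 3367 and 2966 CPM in R241E and to 439, 470 and 501 CPM in WT. A count of 0 after thinning does not show that a nucleus lacked these transcripts. Whether such nuclei were free of an interferon response was not tested. In thinned microglia without any UMI of the list (16.2% and 21.3% of R241E and 67.0% to 71.0% of WT nuclei), PA28 transcripts summed to 216 and 179 CPM in R241E against 90.5, 112 and 138 CPM in WT. With 1 to 3 UMIs of the list they summed to 203 and 234 CPM against 120, 103 and 128 CPM. In both bins the R241E libraries lay above all WT libraries. Nuclei with 4 or more reached 296 and 264 CPM in R241E, while WT had 11 to 15 such nuclei per library with 2 to 4 PA28 UMIs, too few for a comparison. The 20S subunits lay at 605 and 925 CPM in R241E nuclei without UMIs of the list and at 643 and 736 CPM in those with 4 or more, and thus showed no common direction.

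**Figure D3:**
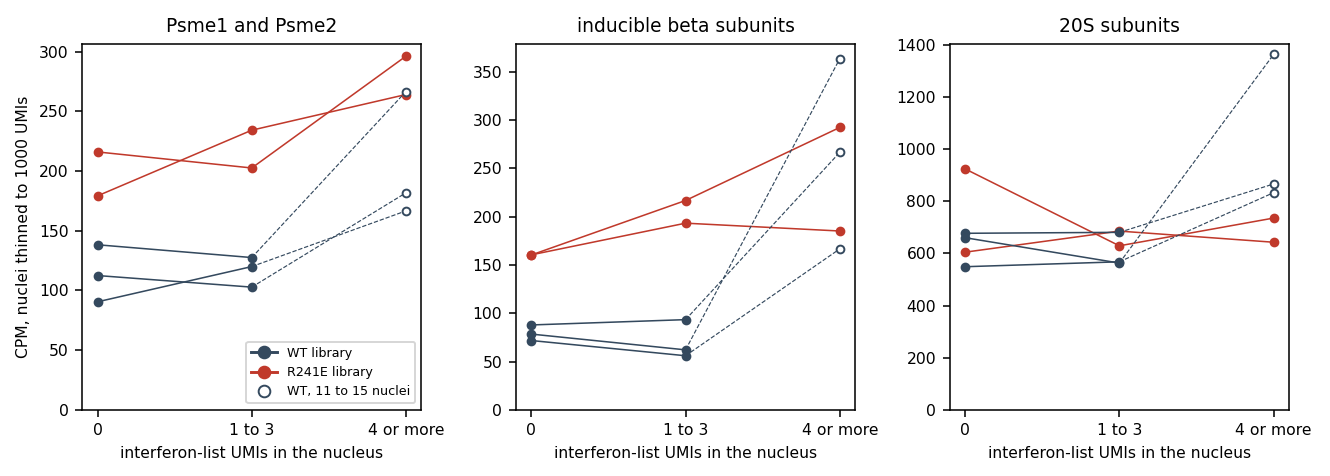
Transcript levels in microglia thinned to 1000 UMIs (CPM, vertical axes) against the number of UMIs from the 28-gene interferon list in the nucleus (horizontal axes), with 1 line per library. For PA28 and the inducible beta subunits both R241E libraries lie above the 3 WT libraries at 0 and at 1 to 3 UMIs, the 20S subunits overlap at both, and open points rest on 11 to 15 WT nuclei.

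The cell classes were then compared for their levels of the machinery. In WT libraries the 20S sum lay between 431 and 999 CPM in all 7 classes with enough nuclei, and the 19S sum between 670 and 1136 CPM. Not all classes overlapped: the 20S sum was 725 to 769 CPM in WT fibroblasts and 552 to 675 CPM in WT microglia. PA28 varied more: WT libraries had 91.0 to 125 CPM in microglia, 79.9 to 118 CPM in border-associated macrophages, 61.0 to 128 CPM in fibroblasts, 18.7 to 65.7 CPM in mural cells, 29.8 to 46.9 CPM in neurons, 6.10 to 33.2 CPM in astrocytes and 10.52 to 17.7 CPM in oligodendrocytes. The first 3 classes overlapped each other, as did mural cells with fibroblasts, neurons and astrocytes. Astrocytes also overlapped with neurons and with oligodendrocytes. The WT ranges of the 3 highest classes did not overlap that of oligodendrocytes. These sums come from 1 library per mouse and class, and smaller classes rest on as few as 2 PA28 UMIs.

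**Figure D4:**
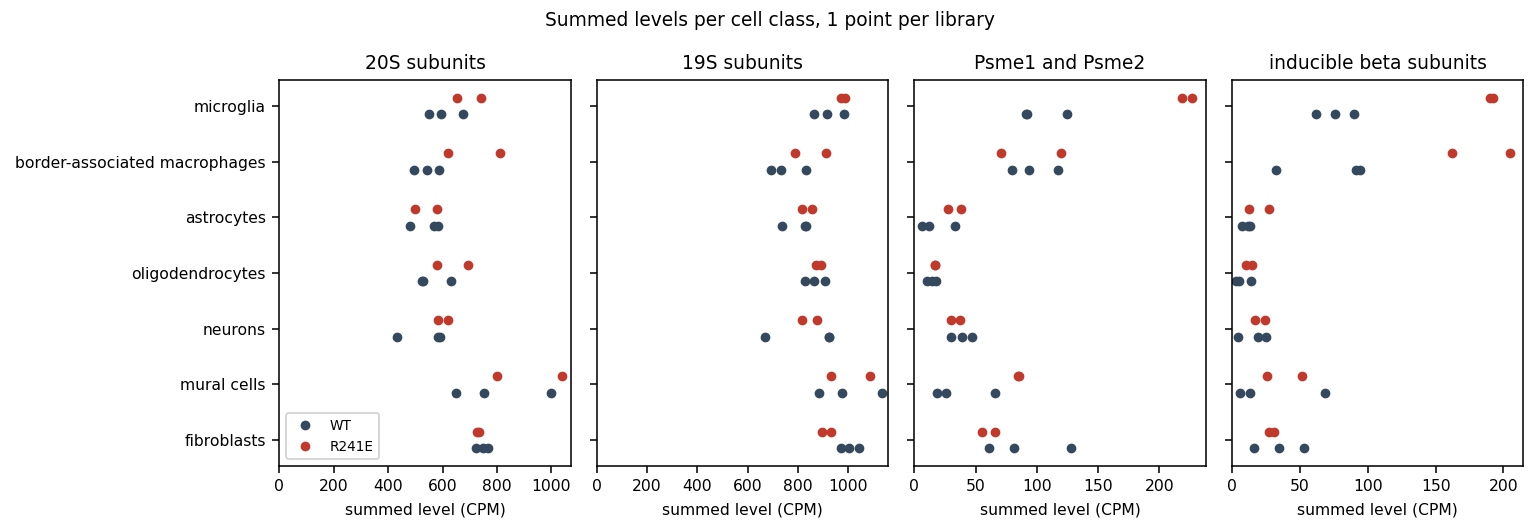
Summed levels (CPM, horizontal axes from 0) of the 20S subunits, the 19S subunits, Psme1 with Psme2, and the inducible beta subunits in 7 cell classes, with 1 point per library. WT 20S sums lie between 431 and 999 over all classes, but not all classes overlap. WT fibroblasts (725 to 769) lie above WT microglia (552 to 675). PA28 separates R241E from WT in microglia (219 and 227 against 91.0 to 125) and in mural cells (84.4 and 85.5 against 18.7 to 65.7). The 20S sum separates the groups only in border-associated macrophages (R241E above), and the 19S sum only in fibroblasts (R241E below).

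Outside microglia no member passed the test in any of the 6 other classes. Tested were 11 members in border-associated macrophages, 30 in astrocytes, 25 in oligodendrocytes, 34 in neurons, 18 in mural cells and 23 in fibroblasts, and the shares of all genes called higher were 0.811%, 0.292%, 0.267%, 0.0112%, 0% and 0%, and lower 0.127%, 0.152%, 0.0178%, 0%, 0% and 0.0172%. At an unadjusted p under 0.05 there was 1 member, in astrocytes, beside 737 of all 7876 genes in that class. In the other classes no member reached it, beside 174 (mural cells) to 759 (neurons) of all genes. DESeq2 called no member. Calls were scarce for all genes in these classes, so the absence of calls says little of the members.

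Psme1 in border-associated macrophages, the brain macrophages outside the parenchyma, had 104 and 62.9 CPM in R241E against 91.5, 81.5 and 45.7 CPM in WT (log2 fold change 0.32, SE 0.39, edgeR adjusted p = 0.938). Their inducible subunits summed to 162 and 204 CPM in R241E and to 32.7, 94.0 and 91.3 CPM in WT, without overlap. In neurons Psme1 had 18.1 and 27.9 CPM against 20.6, 30.04 and 33.1 CPM (log2 fold change -0.27, adjusted p = 0.921), and in fibroblasts 42.8 and 41.1 CPM against 95.9, 36.6 and 58.0 CPM (log2 fold change -0.38, adjusted p = 0.946). In astrocytes it had 30.3 and 14.6 CPM against 6.10, 7.69 and 23.4 CPM (log2 fold change 0.80, adjusted p = 0.770). All of these overlapped. The counts behind them were low, with 2 to 34 Psme1 UMIs per library in these 4 classes. In oligodendrocytes Psme1 did not overlap (12.1 and 13.7 against 2.95, 7.01 and 7.28 CPM, from 1 to 16 UMIs per library). The PA28 sum in mural cells did not overlap either (84.4 and 85.5 against 26.0, 65.7 and 18.7 CPM, from 2 to 36 UMIs per library), although Psme1 alone did. PA28 sums overlapped in each remaining class other than microglia.

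Whether the effect in microglia differed from that in another class was tested directly, with the mouse as a block. No member passed in any of the 6 classes (shares of all genes called were 1.65% for border-associated macrophages, 0.679% for astrocytes, 1.11% for oligodendrocytes, 0.0911% for neurons, 1.17% for mural cells and 0.967% for fibroblasts). Psme1 could be tested against 4 of these classes, since it was too low in oligodendrocytes and mural cells. Its difference was 1.45 on the log2 scale against fibroblasts (SE 0.39, unadjusted p = 0.00176, edgeR adjusted p = 0.104) and 1.42 against neurons (SE 0.34, unadjusted p = 0.00196, adjusted p = 0.204). Against border-associated macrophages it was 0.80 (SE 0.41, adjusted p = 0.545) and against astrocytes 0.24 (SE 0.50, adjusted p = 0.933). The rise of Psme1 was therefore not shown to be particular to microglia.

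The ratio of PA28 to core UMIs overlapped between groups in 5 of the 6 other classes. In border-associated macrophages it was 19.2 and 8.74 per 100 in R241E and 21.7, 18.99 and 13.6 in WT (exact p = 0.6). The core sum in this class was itself higher in R241E, at 622 and 810 CPM against 542, 495 and 588 CPM, whereas the 19S sum overlapped. In neurons the ratio was lower in R241E, at 5.08 and 5.99 per 100 against 6.91, 6.62 and 7.94 (exact p = 0.1, the smallest possible). The 19S sum was lower in R241E fibroblasts, at 894 and 932 against 972 to 1044 CPM. The sum of Psmb5, Psmb6 and Psmb7 was higher in R241E neurons (72.4 and 80.0 against 43.6 to 66.3 CPM) and oligodendrocytes (78.5 and 89.4 against 35.4 to 72.8 CPM). All other sums of these 3 kinds outside microglia overlapped.

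Of 27 further genes of the pathway (ubiquitin, shuttle factors, deubiquitinases and transcription factors of proteasome genes), all were tested in microglia, 3 rose and none fell. The ubiquitin fusion gene Rps27a, which also encodes a ribosomal protein, had 118 and 136 CPM in R241E and 61.5, 65.7 and 95.4 CPM in WT (log2 fold change 0.74, adjusted p = 0.00564). Nfe2l2, a transcription factor of the oxidative stress response that also acts on proteasome genes, had 210 and 203 CPM against 161, 149 and 164 CPM (log2 fold change 0.37, adjusted p = 0.0238). The polyubiquitin gene Ubb had 186 and 217 CPM against 120, 114 and 177 CPM (log2 fold change 0.53, adjusted p = 0.0395). The calls of Nfe2l2 and Ubb were lost without either R241E library and without WT replicate 1 or 2 (adjusted p of 0.0543 to 0.248), and that of Rps27a without R241E replicate 2 (0.0555). The 3 make up 11.1% of the list, beside 6.04% of all genes called higher, and the median of the list was 0.03. Nfe2l1, the factor that restores proteasome genes after inhibition, had 40.8 and 47.05 CPM against 35.2, 36.0 and 34.8 CPM (log2 fold change 0.27, adjusted p = 0.337), and the core maturation factor Pomp had 39.9 and 52.6 CPM against 25.9, 27.7 and 36.6 CPM (log2 fold change 0.56, adjusted p = 0.0730).

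Other promoter motifs were searched in the same windows. The letters TTCNNNGAA, a GAS element bound by STAT factors, occurred in Psmd2 and Psmg1 of the members (9.55% of all genes) and in Psmb8. An antioxidant response element, TGACNNNGC, occurred in 6 of the 39 members with a window, Psmb5, Psmb6, Psmc6, Psmd9, Psmd12 and Psme4 (13.99% of all genes). None of these members passed the test in microglia. Log2 fold changes were 0.66 for Psmb5, 0.48 for Psmb6, 0.29 for Psmd9, 0.04 for Psmc6, -0.03 for Psme4 and -0.06 for Psmd12. Factor binding was not tested. The matches are shown for the catalytic subunits Psmb5 and Psmb6, the beta genes with the highest fold changes.
Psmb5 (chr14:54618023-54618052, minus strand): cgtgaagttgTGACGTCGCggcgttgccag
Psmb6 (chr11:70525338-70525367, plus strand): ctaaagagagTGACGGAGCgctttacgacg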

How the data were processed

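snRNA-seq was performed by the authors with 10x Genomics 3′ chemistry. The deposited values were raw UMI counts per gene and nucleus, obtained by the authors with Cell Ranger on mouse assembly mm10 (per the labels, which also name Seurat). Whether introns or strand entered the counts is not given in the sources used here. Everything else was computed from these counts.

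Nuclei were required to have 200 to 4500 genes, a total below 10000 UMIs and a mitochondrial share below 5%, as in the study. They were clustered together with scanpy 1.11.5 (3000 variable genes, 30 principal components, 20 neighbours, Leiden resolution 1, no integration), and clusters were named "X-like" from marker genes, short names being used in the text. A name needed 3 markers detected in 10% of nuclei and a mean log2 fold of 2, which left 1 cluster of 53 nuclei unnamed, 51 of them from R241E replicate 1. Scrublet called 42 nuclei, too few for a working caller, so doublets were treated through the upper limits. Classes with 20 nuclei in every library were tested.

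UMIs were summed per library and class and tested with edgeR 4.0.16 in R 4.3.3 (quasi-likelihood test, TMM, filterByExpr, genotype as the term, Benjamini-Hochberg adjustment over all genes tested, calls at 0.05). Fold changes and p-values named as adjusted come from this test. DESeq2 1.42.0 was an alternative. Ratios of UMIs were compared by two-sided exact permutation tests. The scripts were tested on simulated data. Genes named were the calls, the genes with the highest and lowest fold change of each role, the catalytic subunits and their replacements, the activators and the inhibitor, with Psmd4, Psmg1, Psmg2, Psmd10, Pomp and Nfe2l1 added after their values were seen. The members, lists and tests were chosen with earlier results of these data known. The ribosomal and span comparisons were added after seeing the data. No replicate library was a copy of another (chi-square of their counts 2.09 to 3.71 per degree of freedom). Protein sequences were not analysed here.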

Additional observations from a re-analysis of the deposited data

How the results depend on the processing

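Across 13 alternatives, the number of members called in microglia moved from 3 to 8 with a replicate block, and leaving out 1 library gave 2 to 6. Mouse numbers were shared by the groups, with a correlation of deviations of 0.106 for number 1 and -0.02 for number 2. As the deviations of 2 R241E libraries mirror each other, these values cannot show whether the numbers pair mice. The block was therefore only an alternative. It added Psmb5, Psmb6, Psma7, Psmc5 and Psme2b. Number 3 was held by a WT library only, so under the block WT replicate 3 added nothing to the genotype contrast. In the 6 other classes the count was 0 under all 13 alternatives. The PA28 excess over the core kept its direction, at 0.29 on the log2 scale with ribosomal protein genes as reference and 0.81 to 1.05 otherwise, and that of the inducible over the catalytic subunits lay between 0.71 and 1.12; the exact test of these ratios cannot reach 0.05 and says nothing of their stability. Among single genes named in microglia, 21 values lost a call, of Psmg4, Psmb10, Nfe2l2, Ubb or Rps27a, and 9 gained one, of Psmb5, Psmb6, Psma7, Psmc5 or Psme2b. Small fold changes changed sign in 19 cases. Thinned sums gave -0.12 for Psme3, -0.31 for Psmb7 and -0.029 for Psmd9. The block gave -0.055 for Psmb7, 0.064 for Psmc1, 0.052 for Psmg3 and 0.00246 for Psma8. Leaving out 1 library gave ranges of -0.077 to 0.00459 for Psme4, -0.12 to 0.16 for Psmf1, -0.036 to 0.074 for Psmb7, -0.13 to 0.063 for Psmc1, -0.19 to 0.025 for Psmd12 and -0.54 to 0.24 for Psmg3. DESeq2 gave 0.021 for Psmf1, no count filter gave -0.00444 for Psmb7, and no upper limits on nuclei gave -0.016 for Psmb7. The causes were not tested. With 2 R241E libraries no exact permutation p can fall below 0.1, and genes with few UMIs, such as Psmg3 and Psmd10, could show only large changes.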
